A study of Mus musculus with 9 samples.

Results

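Transforming growth factor beta (TGF-beta) is a secreted growth factor family with 3 ligands in mammals, and the genes described here are the 10 that encode those ligands (Tgfb1, Tgfb2, Tgfb3), their receptors (Tgfbr1, Tgfbr2, Tgfbr3) and the latent TGF-beta binding proteins (Ltbp1, Ltbp2, Ltbp3, Ltbp4). They were chosen by name from the pathway, with earlier results of these data known, and all 10 were found among the 23309 genes of the files. RNA sequencing was carried out on D2.0R cells, a mouse mammary tumour line from spontaneous hyperplastic alveolar nodules. On a matrix of basement membrane extract (BME) these cells stay quiescent, and collagen type I (COL1) in the matrix makes them divide. Cells were collected from BME after 1 day, from BME after 5 days, or from BME with COL1 after 5 days, with 3 biological replicates (a, b and c) in each group; collagen-containing cultures of day 1 were not analysed here. Per the study's methods all groups had low-glucose medium with low serum and a growth-factor-reduced BME. In the collagen cultures COL1 was part of the coating and of the supplement of the medium. The labels of the groups name the matrix and the day only. BME is itself purified from a matrix-rich mouse tumour, and the results come from a single cell line.

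Each ligand is made as a precursor whose N-terminal part, the latency-associated peptide, stays wrapped around the growth factor after cleavage and keeps it inactive. A latent TGF-beta binding protein is joined to that complex in the cell and tethers it to fibrillin and fibronectin in the matrix, from which integrins or proteases can free the ligand. Released ligand binds the type II receptor TGFBR2, which phosphorylates the type I receptor TGFBR1, and that kinase in turn phosphorylates SMAD2 and SMAD3; TGFBR3 (betaglycan) is a co-receptor that presents ligand, TGFB2 above all. In mammary epithelium the pathway is known for growth arrest and for epithelial-mesenchymal transition, and in disseminated tumour cells for its place in studies of dormancy.

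Transcript levels were taken as FPKM (fragments scaled to transcript length and library size), a level per length, summed over the RefSeq transcripts of a gene. A gene was tested when the 9 libraries averaged 1 FPKM or more, which 10497 genes and 8 of the 10 genes passed; Ltbp2 and Tgfbr3 did not. Differences are log2 fold changes of FPKM + 0.1 from limma, and a gene was called at an adjusted p under 0.05. The aligned bases ranged from 7.21 to 9.37 gigabases per library. Replicate b of BME at day 5 stood apart: its median gene was 0.27 log2 units below the overall mean, against 0.03 and 0.04 below in replicates a and c. Epithelial markers were present (Krt8, 395 to 1324 FPKM; Krt18, 362 to 1088 FPKM; Cdh1, 15.9 to 38.0 FPKM), Epcam was low (0.531 to 1.59 FPKM), and 5 of the 11 epithelial markers stayed under 1 FPKM. In bulk RNA of this kind fewer cells with a transcript and less RNA per cell cannot be told apart.

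Most of the system was expressed in D2.0R cells, with Tgfb1 and Ltbp3 at the top. In BME at day 1 the order of mean levels was Ltbp3 (60.8 FPKM), Tgfb1 (56.5), Tgfbr2 (20.5), Tgfb2 (17.7), Ltbp4 (17.7), Tgfb3 (17.2), Tgfbr1 (9.63), Ltbp1 (1.57), Ltbp2 (0.454) and Tgfbr3 (0.0575). Ltbp3 and Tgfb1 overlapped there, as did Tgfb2, Ltbp4 and Tgfb3 among themselves and Ltbp4 and Tgfb3 with Tgfbr2, while the remaining neighbours were separate. In BME at day 5 Tgfb1 led (90.5 FPKM), ahead of Tgfb3 (61.6) and Ltbp3 (57.3). Tgfb3 overlapped Ltbp3, and reached the range of Tgfb1 in replicate b alone; Tgfbr2 overlapped Tgfb2, Tgfb2 overlapped Ltbp4 and Ltbp4 overlapped Tgfbr1. In BME plus COL1 the order was Ltbp3, Tgfbr2, Tgfb1, Tgfb2, Ltbp4, Tgfb3, Tgfbr1, Ltbp1, Tgfbr3 and Ltbp2, with no overlap between neighbours. Tgfb3 thus stood second on BME at day 5 and sixth in both other groups.

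**Figure D1:**
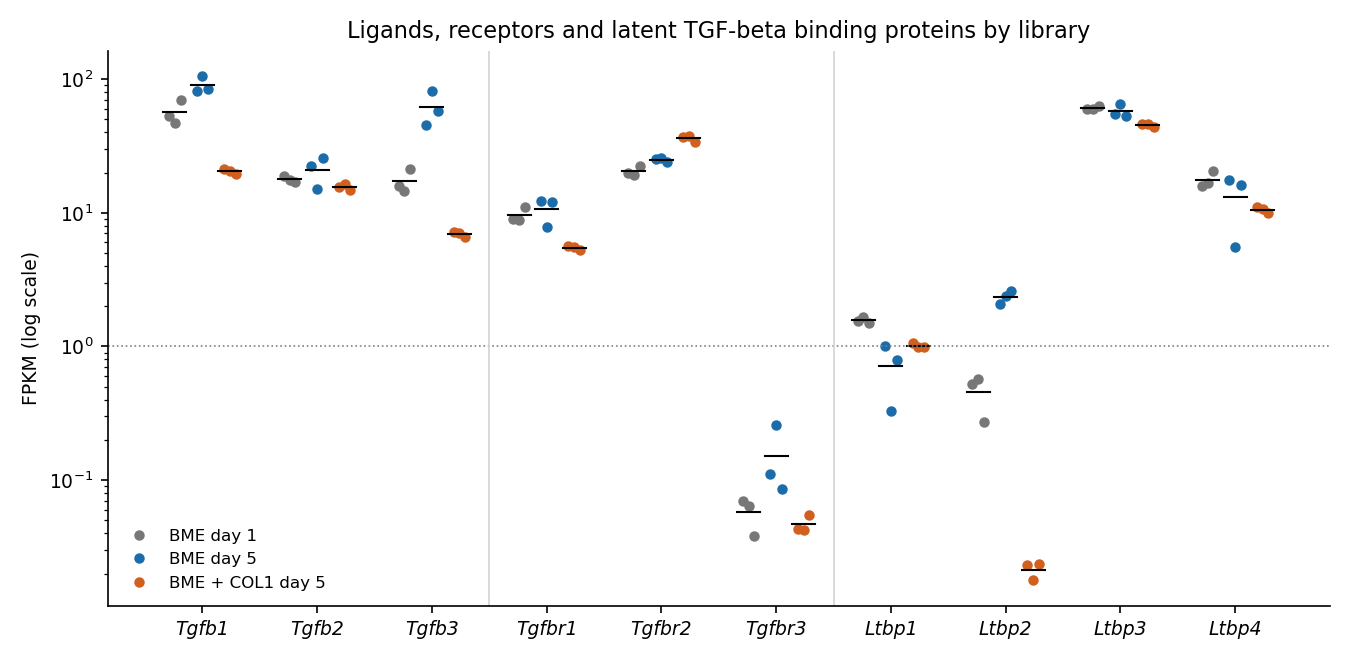
FPKM on a log axis for the 10 genes in the 9 libraries (points, replicates a, b and c from left to right; black bars, group means; dotted line, the 1 FPKM of the filter). Tgfb1, Tgfb3 and Ltbp2 show BME at day 5 above both other groups, whereas Tgfbr2 is highest with COL1 and Tgfbr3 lies under 1 FPKM in all 9 libraries.

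The question put to the first comparison was how quiescent cells on BME differ from cells proliferating with COL1, both at day 5. Of the 8 genes tested, 4 were higher on BME (Tgfb1, Tgfb3, Tgfbr1 and Ltbp3), 1 was lower (Tgfbr2) and 3 were not called (Tgfb2, Ltbp1 and Ltbp4). Among all genes tested 75.6% were called in this comparison, 30.3% as higher and 45.3% as lower, so that being called says little here and the sizes carry more. The median log2 fold change of the 8 genes was 0.36 and that of all genes -0.18. Between BME at day 5 and BME at day 1, which follows the cells into quiescence, 3 of 8 were higher (Tgfb1, Tgfb3, Tgfbr2). In that comparison 1 was lower, Ltbp1, which passed the filter only through its level at day 1. The median was 0.17 against -0.15 for all genes. Of all genes 31.3% were called, 9.09% higher and 22.2% lower. Between BME plus COL1 at day 5 and BME at day 1, 1 was higher (Tgfbr2) and 4 were lower (Tgfb1, Tgfb3, Tgfbr1, Ltbp3), with a median of -0.66 against 0.03; 66.0% of all genes were called, 34.2% higher and 31.8% lower. The 3 comparisons share libraries pairwise, so their values are given side by side and not as separate evidence. Without replicate b of BME at day 5 the counts were 6 higher and 1 lower, 5 higher and 2 lower, and 1 higher and 7 lower in the same order. Over all 10497 genes, calls without that library were 3609 higher and 4675 lower, 1267 and 2626, and 4262 and 3820. With it they were 3179 and 4756, 954 and 2327, and 3588 and 3343.

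**Figure D2:**
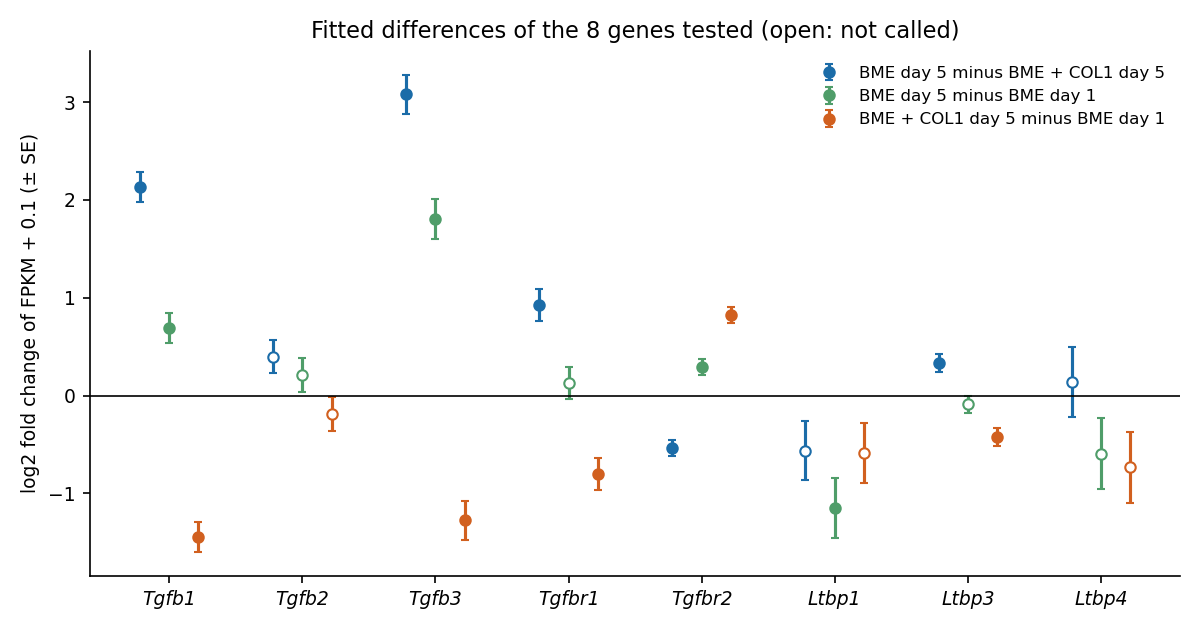
Log2 fold changes of FPKM + 0.1 with standard errors for the 8 genes tested, in the 3 comparisons (filled, called at an adjusted p under 0.05; open, not called). Tgfb1 and Tgfb3 have the largest differences between the matrices at day 5, 2.13 and 3.08, and Tgfbr2 is the only gene of the 8 called higher with COL1 than at day 1.

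The 3 ligands differ in the stretch of the latency-associated peptide that integrins recognise. In TGFB1 and TGFB3 it holds the arginine-glycine-aspartate (RGD) motif, through which alpha-v integrins pull the complex open. It is shown as background to the 3 ligands, and a link between the motif and their transcript levels was not tested. The coding sequences (mm9, sense strand, found by translating the GENCODE vM1 transcripts and aligning Tgfb2 to Tgfb3) are as follows, with the 3 codons at the motif in capitals.
Tgfb1: cccaaacgtCGGGGCGACctgggcacc
Tgfb3: gaccatggcCGTGGAGACctggggcgt
Tgfb2: acatatgccAGTGGTGATcagaaaact
They lie at chr7:26482152-26482178 on the plus strand, chr12:87403106-87403132 on the minus strand and chr1:188454623-188454649 on the minus strand. The capitals spell arginine, glycine and aspartate in Tgfb1 and Tgfb3, whereas the first codon of Tgfb2 is for serine, and a search of the whole Tgfb2 coding frame found 0 RGD motifs.

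Tgfb1 (chr7:26472021-26490015, plus strand, 7 exons) was higher on BME than with COL1. Its levels were 52.6, 46.8 and 70.0 FPKM in BME at day 1, 81.1, 105.5 and 84.9 FPKM in BME at day 5, and 21.2, 20.6 and 19.4 FPKM in BME plus COL1 (replicates a, b and c). All 3 groups were separate from each other, with the COL1 libraries lowest and tightly grouped. The means were 56.5 ± 12.1, 90.5 ± 13.1 and 20.4 ± 0.956 FPKM (SD, n = 3 each). BME exceeded BME plus COL1 at day 5 by 2.13 log2 units (SE 0.15, limma adjusted p = 2.23e-06). The rise from day 1 to day 5 on BME was 0.69 (SE 0.15, limma adjusted p = 0.0115), and with only those 6 libraries in the fit its adjusted p was 0.0555. With COL1 the level fell by 1.44 log2 units relative to day 1 (SE 0.15, limma adjusted p = 3.88e-05).

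Tgfb3 (chr12:87397693-87419991, minus strand, 7 exons) had the largest difference of the 8 genes tested. Its levels were 15.9, 14.7 and 21.1 FPKM in BME at day 1, 45.2, 81.2 and 58.2 FPKM in BME at day 5, and 7.22, 7.11 and 6.64 FPKM with COL1. Again no groups overlapped, and replicate b of BME at day 5 was the highest of the 9 libraries. BME exceeded BME plus COL1 at day 5 by 3.08 log2 units (SE 0.20, limma adjusted p = 1.35e-06), a ratio of mean FPKM of 8.81. The rise from day 1 on BME was 1.81 (SE 0.20, limma adjusted p = 0.000604) and the fall with COL1 was 1.27 units (log2 fold change -1.27, limma adjusted p = 0.000438). Without replicate b the differences at day 5 and from day 1 were 2.86 and 1.59, still called.

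Tgfb2 (chr1:188447065-188529871, minus strand, 7 exons) passed the test in none of the 3 comparisons. It stood at 18.9, 17.5 and 16.9 FPKM in BME at day 1, 22.4, 14.9 and 25.9 FPKM in BME at day 5, and 15.6, 16.3 and 14.8 FPKM with COL1. The BME day 5 libraries overlapped both other groups through replicate b, the lowest of the 3. The log2 fold change between the matrices at day 5 was 0.40 (SE 0.17, limma adjusted p = 0.0562), and without replicate b it was 0.63 (limma adjusted p = 9.14e-05). The difference was also called under TPM, median-ratio and quantile scaling.

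The make-up of the ligand transcripts differed accordingly. The summed FPKM of the 3 ligands was 91.5 ± 14.9 in BME at day 1, 173 ± 26.7 in BME at day 5 and 43.0 ± 1.92 with COL1 (SD, n = 3 each). Tgfb3 made up 18.8% ± 0.693, 35.0% ± 4.95 and 16.3% ± 0.121 of that sum, and Tgfb2 made up 19.8% ± 3.62, 12.6% ± 4.49 and 36.2% ± 0.798. A ratio of this kind is unaffected by any single factor applied to a whole library, though quantile scaling can change it. The log2 ratio of Tgfb1 to Tgfb3 was 1.72, 1.67 and 1.73 at day 1, 0.84, 0.38 and 0.54 in BME at day 5, and 1.56, 1.54 and 1.54 with COL1. Tgfb3 therefore gained on Tgfb1 in all 3 BME day 5 libraries. An exact two-sided permutation test gave p = 0.1 for both comparisons of BME at day 5, the smallest that 3 libraries against 3 allow, and p = 0.131 after adjustment over the 21 ratios and transcript shares tested. The log2 ratio of Tgfb1 to Tgfb2 fell from 1.65 at day 1 to 0.39 with COL1 in the means, without overlap (exact permutation p = 0.1, adjusted p = 0.131), and was 2.13 in BME at day 5.

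**Figure D3:**
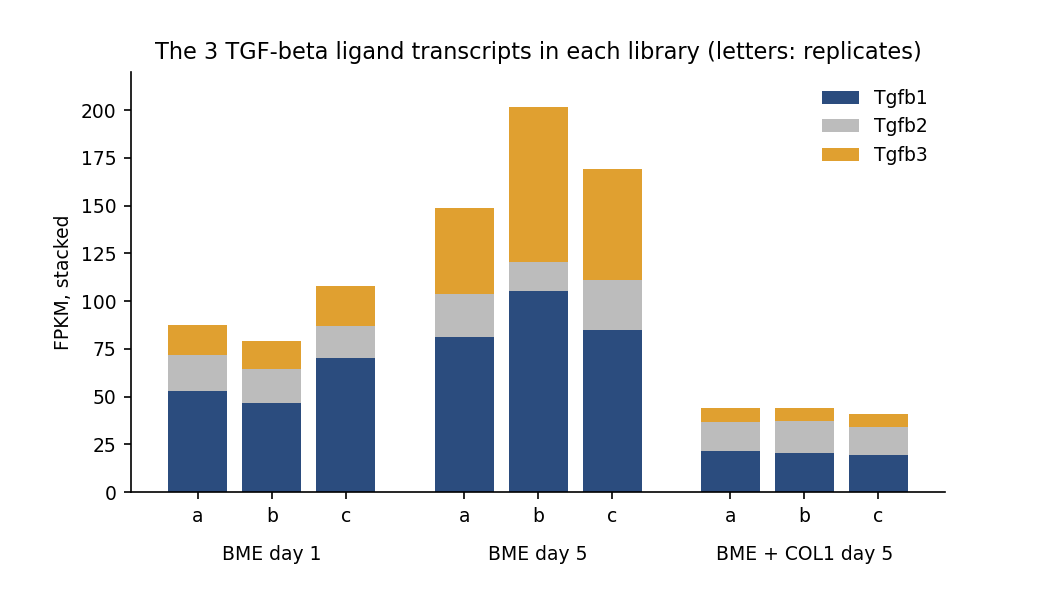
Stacked FPKM of Tgfb1, Tgfb2 and Tgfb3 in each of the 9 libraries (letters, replicates). The sum lies between 149 and 202 FPKM in BME at day 5, between 79.0 and 108 FPKM at day 1 and between 40.8 and 44.1 FPKM with COL1, and the Tgfb3 segment makes up the largest part in replicate b of BME at day 5 (40.3%).

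The receptors moved in opposite directions when COL1 was present. Tgfbr1 (chr4:47366177-47427796, plus strand, 9 exons), the type I kinase, stood at 8.99, 8.88 and 11.02 FPKM in BME at day 1, 12.2, 7.82 and 12.1 FPKM in BME at day 5, and 5.60, 5.55 and 5.24 FPKM with COL1. The COL1 libraries lay below all others, whereas the BME groups overlapped. It was 0.93 log2 units higher on BME than with COL1 at day 5 (SE 0.16, limma adjusted p = 0.000575) and 0.80 units lower with COL1 than at day 1 (log2 fold change -0.80, limma adjusted p = 0.00195). Its change on BME between the days was 0.13 (SE 0.16, limma adjusted p = 0.548), and without replicate b it was 0.34 and called.

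Tgfbr2 (chr9:115996813-116084481, minus strand), the ligand-binding type II receptor, stood at 19.8, 19.1 and 22.6 FPKM in BME at day 1, 25.5, 25.6 and 24.04 FPKM in BME at day 5, and 37.2, 37.5 and 34.1 FPKM with COL1. The 3 groups were separate and in that order. The rise with COL1 over day 1 was 0.82 log2 units (SE 0.08, limma adjusted p = 3.04e-05). BME at day 5 was 0.53 units lower than BME plus COL1 (log2 fold change -0.53, SE 0.08, limma adjusted p = 0.000279), a difference that shrank to -0.19 under TPM and -0.16 under quantile scaling and was then not called. The rise of 0.29 from day 1 to day 5 on BME (SE 0.08, limma adjusted p = 0.0291) was lost in 7 of 22 alternatives, the replicate block among them (adjusted p = 0.0547). The log2 ratio of Tgfbr1 to Tgfbr2 within a library was -1.14, -1.10 and -1.03 at day 1, -1.06, -1.71 and -0.996 in BME at day 5, and -2.73, -2.76 and -2.70 with COL1 (exact permutation p = 0.1 for COL1 against either group, the smallest possible, adjusted p = 0.131).

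Tgfbr2 is annotated with 2 transcripts, NM_029575 with 7 exons and NM_009371 with an additional exon of 75 bases, 25 codons, in the extracellular part of the receptor. This exon is printed because it is the only difference between them (chr9:116067389-116067463, mm9, sense strand).
Tgfbr2 additional exon: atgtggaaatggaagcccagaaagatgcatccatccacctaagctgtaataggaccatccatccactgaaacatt
The transcript without it held 77.7%, 82.6% and 85.8% of the Tgfbr2 FPKM in BME at day 1, 73.9%, 73.8% and 81.99% in BME at day 5, and 78.7%, 79.0% and 83.8% with COL1. These shares overlapped between all groups, with exact permutation p-values between 0.2 and 0.7.

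Tgfbr3 (chr5:107535589-107718614, minus strand, 17 exons), the co-receptor, was barely detected. It stood at 0.0704, 0.0639 and 0.0382 FPKM in BME at day 1, 0.111, 0.259 and 0.0864 FPKM in BME at day 5, and 0.0434, 0.0422 and 0.0546 FPKM with COL1. The confidence intervals deposited with the values reached between 21.8% and 58.0% of the value below it, the only side computed. In a fit with no filter the BME libraries at day 5 were 0.72 log2 units above COL1 (SE 0.22, limma adjusted p = 0.0243), at levels that remained below 1 FPKM throughout.

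Of the latent TGF-beta binding proteins, Ltbp3 carried most of the transcript. Ltbp3 (chr19:5740904-5758532, plus strand, 28 exons) stood at 59.4, 60.0 and 62.9 FPKM in BME at day 1, 54.5, 64.9 and 52.6 FPKM in BME at day 5, and 45.9, 46.3 and 43.9 FPKM with COL1. The COL1 libraries lay below all others. It was 0.33 log2 units higher on BME than with COL1 at day 5 (SE 0.09, limma adjusted p = 0.00756) and -0.42 with COL1 against day 1 (SE 0.09, limma adjusted p = 0.00265). On BME between the days the difference was -0.09 (SE 0.09, limma adjusted p = 0.45). It took the opposite sign when scaled by TPM, median ratios or quantiles, and was -0.18 and called without replicate b of BME at day 5 (adjusted p = 0.0188).

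Ltbp2, which unlike the other LTBPs is not known to bind latent TGF-beta, showed the widest relative spread between groups. Ltbp2 (chr12:86124162-86217445, minus strand, 35 exons) stood at 0.521, 0.567 and 0.274 FPKM in BME at day 1, 2.09, 2.37 and 2.58 FPKM in BME at day 5, and 0.0231, 0.0178 and 0.0235 FPKM with COL1. The groups were far apart, but the levels were low throughout. Its mean over the 9 libraries was 0.940 FPKM, just under the filter, so it was not tested with the other genes. In the fit with no filter BME exceeded COL1 at day 5 by 4.33 log2 units (SE 0.22, limma adjusted p = 3.27e-06), rose by 2.18 from day 1 (limma adjusted p = 0.00138) and fell by 2.14 with COL1 (log2 fold change -2.14, limma adjusted p = 0.000142). The deposited confidence intervals of the COL1 values reached 79.3% to 92.6% of the value below it, the only side computed. The 0.1 FPKM added before the logarithm compresses the fold change of the COL1 values.

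Ltbp1 was the lowest of the genes tested, and Ltbp4 was called in none of the comparisons. Ltbp1 stood at 1.55, 1.65 and 1.51 FPKM in BME at day 1, 1.01, 0.332 and 0.792 FPKM in BME at day 5, and 1.06, 0.988 and 0.984 FPKM with COL1. Day 1 was above all other libraries, and the gene passed the filter only through that group. Its mean over the 9 libraries was 1.10 FPKM. The means were 1.57 FPKM in BME at day 1, 0.710 FPKM in BME at day 5 and 1.01 FPKM with COL1. The fall on BME was 1.15 log2 units (log2 fold change -1.15, SE 0.30, limma adjusted p = 0.0221); without replicate b it was -0.75 and still called, and without replicate a or b of BME at day 1 its adjusted p was 0.0644 or 0.0683. Ltbp4 stood at 15.8, 16.8 and 20.5 FPKM in BME at day 1, 17.5, 5.51 and 16.2 FPKM in BME at day 5, and 11.1, 10.7 and 9.91 FPKM with COL1. Replicate b of BME at day 5 was the lowest of all 9 libraries and the other replicates lay above all COL1 libraries. The day 5 comparison gave 0.14 log2 units (SE 0.36, limma adjusted p = 0.741) with replicate b and 0.67 (limma adjusted p = 0.000368) without it. For the 8 genes, the gap of replicate b to the mean of a and c ran from -1.59 (Ltbp4) and -1.20 (Ltbp1) to 0.66 (Tgfb3) log2 units, beside a median of -0.24 over all tested genes.

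The 2 genes have alternative starts. The estimated shares of their transcripts did not overlap between the groups, though 3 libraries against 3 are too few for such a test to pass. For Ltbp1 the shorter transcript NM_206958 (30 exons, chr17:75578150-75792307) begins inside the span of NM_019919 (34 exons, chr17:75404869-75792307), and they share 29 exons. It held 55.4%, 66.6% and 56.8% of the Ltbp1 FPKM in BME at day 1, 30.5%, 1.82% and 43.9% in BME at day 5, and 51.1%, 51.0% and 51.0% with COL1. The groups were separate with BME at day 5 lowest, and replicate b was far below the others. These are shares of a low signal. NM_206958 averaged 0.939, 0.220 and 0.516 FPKM in BME at day 1, BME at day 5 and with COL1, and NM_019919 averaged 0.631, 0.490 and 0.496 FPKM. In replicate b of BME at day 5 NM_206958 was at 0.00604 FPKM. For Ltbp4 the transcript NM_001113549 (30 exons, chr7:28090160-28118667) begins downstream of NM_175641 (33 exons, chr7:28090160-28122631). It held 56.4%, 54.0% and 57.0% in BME at day 1, 79.3%, 82.9% and 79.7% in BME at day 5, and 71.2%, 76.3% and 65.5% with COL1. All 3 groups were separate, and here replicate b lay with its group although its Ltbp4 total was the lowest. Each of the 6 comparisons of these shares gave an exact permutation p of 0.1, the smallest possible, and 0.131 adjusted over the 21 tests. The NM_175641 level itself was 7.82 ± 0.959, 2.62 ± 1.46 and 3.05 ± 0.466 FPKM (SD, n = 3), against 9.89 ± 1.55, 10.5 ± 5.12 and 7.51 ± 0.884 FPKM for NM_001113549, so the day 1 libraries were set apart by the longer transcript. How fragments of shared exons are divided is an estimate of the authors' program.

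**Figure D4:**
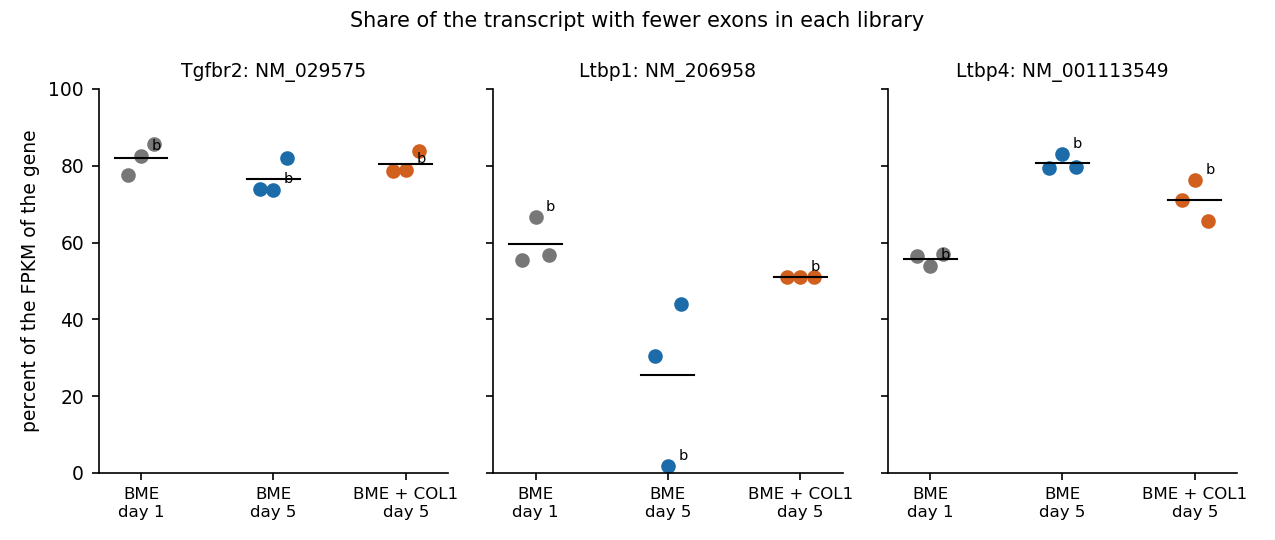
Percent of the gene's FPKM held by the transcript with fewer exons, for Tgfbr2, Ltbp1 and Ltbp4, in each library (points, replicates a, b and c from left to right with b marked; bars, group means). The Tgfbr2 shares overlap, the Ltbp1 share is lowest in BME at day 5 (mean 25.4%), and the Ltbp4 share is lowest at day 1 (mean 55.8%).

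Tgfb1, Tgfb3 and Ltbp2 were highest on BME at day 5, and the 250 bases before their annotated starts are printed for that reason (mm9, 5′ to 3′ on the gene's strand). Both strands were searched for 4 motifs. The letters TGACTCA stood for an AP-1 site. The letters GGGCGG stood for a GC box. The letters GTCTAGAC stood for a palindromic SMAD site. The letters TATAAA stood for a TATA box. Matches are in capitals, and none overlapped another.
Tgfb1 upstream, chr7:26471771-26472020: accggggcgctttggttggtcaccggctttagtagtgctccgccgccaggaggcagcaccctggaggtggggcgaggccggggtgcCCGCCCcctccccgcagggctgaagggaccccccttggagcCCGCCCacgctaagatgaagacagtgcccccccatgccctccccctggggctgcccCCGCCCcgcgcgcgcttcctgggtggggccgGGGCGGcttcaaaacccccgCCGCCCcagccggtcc
Tgfb3 upstream, chr12:87419992-87420241: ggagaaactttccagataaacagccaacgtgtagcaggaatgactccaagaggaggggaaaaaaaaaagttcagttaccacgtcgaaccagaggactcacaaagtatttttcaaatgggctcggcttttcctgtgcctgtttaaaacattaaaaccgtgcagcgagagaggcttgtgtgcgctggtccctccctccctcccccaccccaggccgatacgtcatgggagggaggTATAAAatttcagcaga
Ltbp2 upstream, chr12:86217446-86217695: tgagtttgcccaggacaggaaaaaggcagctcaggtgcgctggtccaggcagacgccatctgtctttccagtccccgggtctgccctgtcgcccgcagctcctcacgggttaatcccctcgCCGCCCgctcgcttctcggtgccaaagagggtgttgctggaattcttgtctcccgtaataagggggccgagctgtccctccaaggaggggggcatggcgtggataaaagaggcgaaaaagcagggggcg
Tgfb1 held 5 GC boxes, Ltbp2 held 1 and Tgfb3 held 0, and 42.1% of the 25831 upstream windows of annotated starts held at least 1. Tgfb3 alone of the 3 held a TATA box, whose first base lies 17 bases before the start, as did 11.8% of all windows. No match was found for AP-1 (4.08% of all windows) or the SMAD palindrome (0.166%). These letters are a description of the windows only.

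The genes whose levels followed a ligand most closely over the 9 libraries, among 7631 genes averaging 5 FPKM or more, were Cyp1b1 (Pearson r = 0.997), Ptpn3 (0.997) and Slc18b1 (0.997) for Tgfb1, and Pcx (0.998), Itm2b (0.997) and Lamb2 (0.997) for Tgfb3. For Tgfb2 they were Parn (0.962), Ebag9 (0.957) and Plod2 (0.932). The 9 points share the group differences and the scaling of each library, and the values are given as a description. Cyp1b1, a cytochrome P450 enzyme, stood at 181, 370 and 42.2 FPKM at day 1 on BME, at day 5 on BME and with COL1.

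Transcripts for proteins that store or release latent TGF-beta were mostly higher on BME than with COL1 at day 5. Of 24 such genes 14 were tested, and at day 5 10 of the 14 (71.4%) were higher on BME than with COL1 and 2 were lower, with a median log2 fold change of 0.60; 30.3% of all genes were higher and their median was -0.18. Highest were 2 integrin beta chains that pair with alpha-v, Itgb3 (2.51, SE 0.20, limma adjusted p = 3.68e-06) and Itgb5 (2.03, SE 0.18, limma adjusted p = 9.51e-06). Itgav, the gene of alpha-v itself, was not called between the matrices at day 5 (0.19, SE 0.14, limma adjusted p = 0.244). Itgb3 stood at 49.5 FPKM at day 1, 41.3 FPKM in BME at day 5 and 6.96 FPKM with COL1, whereas Itgb5 stood at 49.9, 156 and 37.0 FPKM. Lowest were proteases, Adamts1 (-3.55, SE 0.39, limma adjusted p = 2.99e-05) and Plau, the urokinase (-1.50, SE 0.11, limma adjusted p = 2.54e-06). Between the days on BME 5 of 14 (35.7%) rose and 3 (21.4%) fell, beside 9.09% and 22.2% of all genes. They were led by Itgb5 (1.61) and Thbs1 (1.26), the thrombospondin that can activate latent TGF-beta, at 660.5 FPKM in BME at day 5 against 269 FPKM at day 1, and by Furin, the convertase that cleaves the precursors (-0.57), and Plau (-0.39). With COL1 against day 1, 2 (14.3%) rose, Adamts1 by 3.03 and Plau by 1.11, and 8 (57.1%) fell, most of all Itgb3 (-2.80) and Tgm2 (-1.71), a transglutaminase, beside 34.2% and 31.8% of all genes. Itgb6, the partner of another latent TGF-beta integrin, did not exceed 0.0129 FPKM and fibrillin Fbn2 was listed at 0 in all libraries, so 10 genes of the list were not tested.

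Of 30 genes of the intracellular part of the pathway and its regulators, 26 were tested. At day 5, 10 (38.5%) were higher and 10 (38.5%) lower on BME than with COL1, beside 30.3% and 45.3% of all genes. Between the days on BME 3 (11.5%) were higher and 8 (30.8%) lower, beside 9.09% and 22.2%, and with COL1 against day 1 7 (26.9%) were higher and 11 (42.3%) lower, beside 34.2% and 31.8%. The medians were -0.07, -0.19 and -0.09. Among those higher at day 5 were Pmepa1 (2.02, SE 0.07, limma adjusted p = 8.29e-08) and Skil (1.30, SE 0.10, limma adjusted p = 2.92e-06), both known as SMAD-induced feedback inhibitors. Among those lower were Cd109 (-2.54), a co-receptor that dampens signalling, and Dab2 (-2.27), an adaptor of receptor endocytosis. Smad3, a signal-transducing SMAD, rose with COL1 over day 1 by 0.98 log2 units (SE 0.07, limma adjusted p = 4.78e-06), from 9.44 to 18.7 FPKM, and Dab2 rose by 0.79. Pmepa1 and Skil were -1.70 and -1.57 in that comparison. On BME from day 1 to day 5 Tgif1, a SMAD co-repressor, rose by 0.44 and Pmepa1 by 0.32, while Cd109 and Dab2 were at -1.84 and -1.48. Cd109 was uneven at day 1, at 4.81, 6.43 and 1.70 FPKM in replicates a, b and c. In BME at day 5 it stood at 1.35, 0.820 and 0.836 FPKM.

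Genes known as TGF-beta targets were called in both directions. Of 38, 26 were tested. At day 5, 12 (46.2%) were higher and 9 (34.6%) lower on BME than with COL1 (median -0.02, all genes -0.18), beside 30.3% and 45.3% of all genes. Between the days on BME 4 (15.4%) were higher and 9 (34.6%) lower (median -0.18), beside 9.09% and 22.2%. With COL1 against day 1, 8 (30.8%) were higher and 12 (46.2%) lower (median -0.31), beside 34.2% and 31.8%. Postn, the matricellular protein periostin, had the largest difference of the list, 6.64 log2 units higher on BME at day 5 (SE 0.15, limma adjusted p = 2.03e-08), with means of 3.81, 23.6 and 0.136 FPKM at day 1, in BME at day 5 and with COL1. Sphk1, a sphingosine kinase, followed (2.15). Lower on BME were Acta2, smooth muscle actin (-3.10, at no more than 3.58 FPKM), and Pthlh, the parathyroid hormone-like hormone (-2.87). Acta2, counted among the 9 lower, passed the filter only through its level with COL1. Its means were 0.496 FPKM at day 1, 0.346 FPKM in BME at day 5 and 3.46 FPKM with COL1. Ctgf, a classical target, rose from day 1 in both day 5 groups, by 1.45 on BME and by 1.64 with COL1, and its means of 36.2 and 41.2 FPKM were not called different between the matrices. Ctgf was uneven at day 1, at 18.1, 19.9 and 6.27 FPKM in replicates a, b and c. Il11 was at -0.94 between the days on BME, and it passed the filter only through its level at day 1. Its means were 1.97 FPKM at day 1, 0.993 FPKM in BME at day 5 and 0.964 FPKM with COL1. Without replicate b of BME at day 5 the targets higher from day 1 on BME numbered 8 in place of 4. Over all 10497 genes, those called higher numbered 1267 in place of 954.

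**Figure D5:**
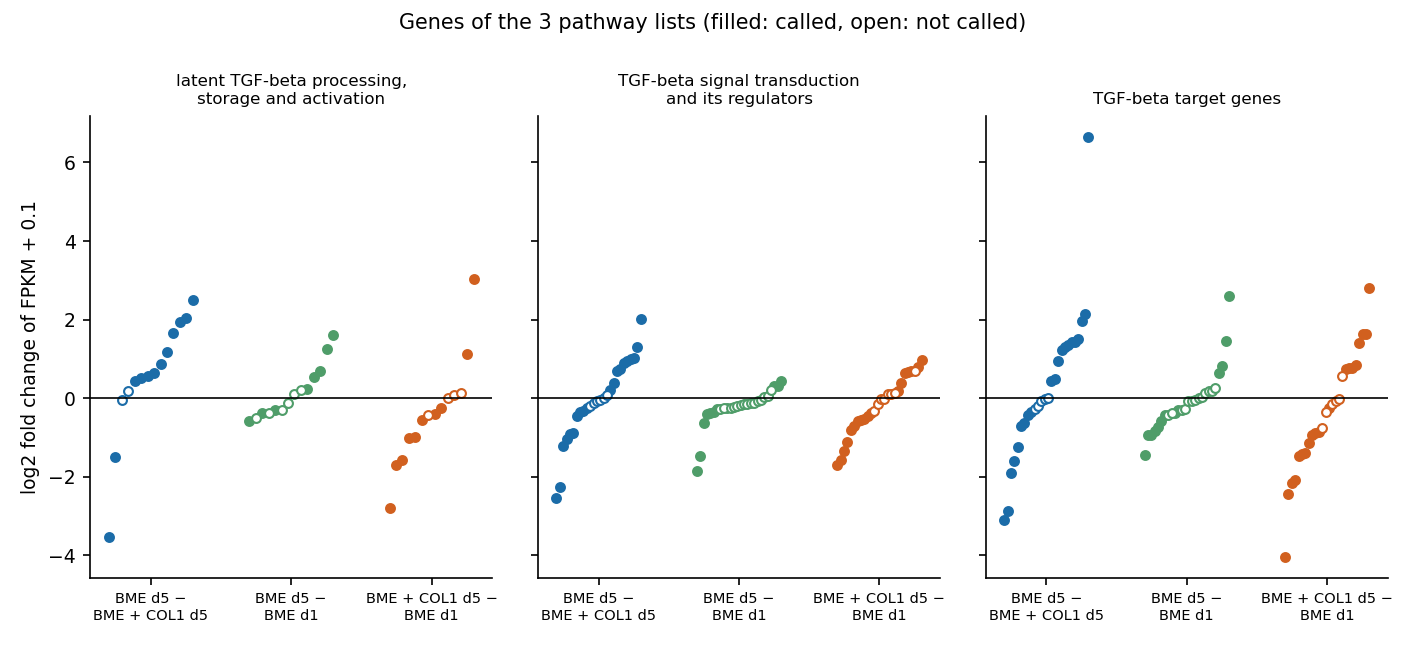
Log2 fold changes of FPKM + 0.1 for each tested gene of the 3 pathway lists, ordered by size within each comparison (filled, called; open, not called). Most genes of the storage and activation list lie above 0 between the matrices at day 5 (10 called higher, 2 lower), and the other lists spread to both sides; the point above 6 is Postn.

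Postn and Acta2 are also in the list of fibroblast markers, whose summed level moved with the ligands: 24.3 to 31.8 FPKM in BME at day 1, 51.0 to 62.6 FPKM in BME at day 5 and 8.07 to 8.47 FPKM with COL1. In the BME groups Pdgfra, Pdgfrb and Postn made up most of the sum, and with COL1 Acta2 (3.46 FPKM) and Pdgfra (2.71 FPKM) did; Acta2, Col1a2 and Col3a1 had their highest mean with COL1. Of the list, 7 of the 12 markers stayed under 1 FPKM in every library, among them the defining fibroblast genes Dcn (at most 0.0116 FPKM), Col3a1 (at most 0.0631 FPKM) and Lum (0). Endothelial markers were under 1 FPKM for 8 of 9, Flt1 being the exception, and haematopoietic markers for 9 of 11, Cd68 and Cd14 being the exceptions. The epithelial sum, 785 to 1170 FPKM in BME at day 5 and 2364 to 2471 FPKM with COL1, moved the other way. Most of it was Krt8 (means of 500 and 1313 FPKM) and Krt18 (468 and 1052 FPKM). Cdh1 (16.4 and 31.1 FPKM) and Krt7 (3.05 and 10.65 FPKM) were also lower on BME. Krt14 (16.25 and 16.98 FPKM) and Epcam (0.730 and 0.821 FPKM) were close in the same 2 groups. The part of these marker differences in the ligand values was not tested.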

How the data were processed

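RNA sequencing of 9 D2.0R libraries, 3 biological replicates in each of 3 groups, was used. Per the study's methods, libraries were made with a directional kit and sequenced on an Illumina instrument. TopHat2 2.0.8, Trimmomatic 0.30, CASAVA 1.8.4 and Partek, with the build mm9, are listed by the submitters; the files carry Cufflinks output for 30563 RefSeq transcripts, whose version is not given in the sources used here. The deposited values are FPKM computed by the authors, with confidence intervals and coverage; read counts were not analysed here, so no count model was used, and the study's own test, which runs on alignments, was not repeated.

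FPKM was summed per gene symbol. limma 3.58.1 (R 4.3.3) was fitted to log2(FPKM + 0.1) with an intensity trend, over all 9 libraries and 3 group means, for genes averaging 1 FPKM or more, two-sided, with Benjamini-Hochberg adjustment over all genes tested and a threshold of 0.05. The fit was tested on simulated data. Ratios and transcript shares were compared by exact permutation tests over libraries. Sequences come from the NCBIM37 genome and GENCODE vM1 with Biopython 1.88, and motif shares from 25831 windows. Intervals deposited with the values cover counting and assignment error only.

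The 10 genes, the pathway and marker lists and the naming rule were chosen with earlier results of these data known, so no p-value was adjusted over a list alone. Named were all 10 genes; of each pathway list and comparison, the 2 largest rises and falls among called genes; and for each ligand the 3 genes with the highest correlation. Same-letter replicates did not deviate together (correlations of -0.23 to 0.096), so letters were not used as pairs. Alternatives changed the pseudocount, filter, scaling (TPM, median-ratio, quantile, no genes under 300 nt), transcript summing, libraries, trend, threshold and block, and left out each library.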

Additional observations from a re-analysis of the deposited data

How the results depend on the processing

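Across the alternatives, 303 of the 330 recomputed counts of called genes stayed within 1.5 times the reported count. Of the 8 genes tested, those lower on BME than with COL1 at day 5 numbered 0 in place of 1 under TPM and 1 to 2 when single libraries were left out. Between the days on BME, the fit of only the 6 libraries compared gave 1 higher and 0 lower in place of 3 and 1, an adjusted p under 0.01 gave 1 and 0, a mean of at least 5 FPKM gave 0 lower (Ltbp1 is then not tested), and leaving out single libraries gave 2 to 5 higher and 0 to 2 lower. With COL1 against day 1, TPM and the 6 libraries alone gave 7 lower in place of 4, and single libraries left out gave 4 to 7, the 7 without BME day 5 replicate b. Over all genes, those lower numbered 4870 under TPM, 3768 with 6 libraries and 3820 without that library, in place of 3343. In the comparison of days on BME, the storage and activation list had 4 called in place of 8 with 6 libraries or an adjusted p under 0.01, and 4 to 9 with single libraries left out. The signal transduction list had 3 called in place of 11 under both of these, 6 without genes under 300 nt, and 4 to 13 with single libraries left out; the lowest count came without BME day 1 replicate a in this list, and without BME day 1 replicate a or b in the storage and activation list. The target list had 7 in place of 13 under both. Over all genes, calls between the days on BME were 954 higher and 2327 lower in the reported fit. They were 452 and 618 with 6 libraries, and 412 and 635 at an adjusted p under 0.01. Without genes under 300 nt they were 968 and 1216. With single libraries left out they were 533 to 1267 higher and 1018 to 3248 lower. Signs turned, among values that were not called, for Ltbp3 between the days on BME (0.031 under TPM, 0.025 under median-ratio and 0.085 under quantile scaling) and for Ltbp4 between the matrices (from -0.152 to 0.671 with single libraries left out, below 0 without BME day 5 replicate a or c). The cause was not tested.

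TPM moved the median of all genes between the matrices at day 5 by 0.34 log2 units (from -0.18 to 0.16), and the share of calls that were higher from 40.1% to 59.4%. Between the days on BME that share was 29.1%, and 40.7%, 45.4%, 48.1%, 44.3% and 42.2% under TPM, median-ratio scaling, quantile scaling, without short genes and with 6 libraries. With COL1 against day 1 it was 51.8%, and 35.1% under TPM. Relative to the median gene, each of the 8 genes tested kept its sign under all 5 scalings in all 3 comparisons: between the matrices Tgfb1 stood 2.31 to 2.53, Tgfb3 3.26 to 3.34 and Tgfbr2 -0.35 to -0.12 from it. The fit with a replicate block, whose letters did not pair the samples, gave 4 higher and 1 lower between the matrices, 2 higher and 1 lower between the days and 1 higher and 4 lower with COL1; Tgfbr2 between the days (adjusted p = 0.0547) was the only one of these genes to lose its call. With 3 libraries a group, the spread of Tgfb2, Ltbp1 and Ltbp4 in BME at day 5 limits what can be seen in them.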
